A study of Homo sapiens with 9 samples.

Results

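Interferon-stimulated genes and the factors that switch them on were followed across 3 groups of bead arrays of NCI-H716, an established human line from a colorectal cancer that keeps traits of hormone-secreting gut cells. The 9 genes were IFI6, IFI27, IFIT1, IFIT3, ISG15, MX1, OAS1, STAT2 and IRF9. Their probes were taken by gene name from the deposited intensity table, which gave 16 of its 47230 probes. The line was left untreated, given a control vector or given a YAP mutant vector, and each group holds 3 arrays. All 3 groups share the same cell line, and the untreated cells carry no vector. The vector's backbone, its promoter, the YAP mutation, the time after delivery and whether the cells were cloned or pooled are not given in the sources used here. YAP, a coactivator of transcription, is held in check by the Hippo kinases. The question was whether genes of the interferon response differed with the vector, and whether they differed further with mutant YAP.

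Type I and type III interferons are secreted when cells sense foreign nucleic acid. Their receptors activate the kinases JAK1 and TYK2, which phosphorylate STAT2. STAT2 and IRF9 belong to the complex ISGF3, which binds the interferon-stimulated response element and induces antiviral genes. In the epithelium of the gut this response limits virus spread, and delivery of foreign DNA or RNA to cultured cells is a known way to trigger it.

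The response element is read in the promoters themselves, so 3 are shown: IFI6, whose signal separated the groups most clearly, and ISG15 and IFIT1, both textbook targets of ISGF3. Each run is the 250 bases before the gene's start, 5′ to 3′ on the gene's strand, from RefSeq (GRCh38.p14). Capitals mark matches to the core of the element, which was searched as GAAA, any 2 bases and GAAA again, or on the other strand TTTC, any 2 bases and TTTC. The IFI6 run lies at chr1:27672193-27672442 on the minus strand, the ISG15 run at chr1:1013247-1013496 on the plus strand and the IFIT1 run at chr10:89392373-89392622 on the plus strand.
IFI6: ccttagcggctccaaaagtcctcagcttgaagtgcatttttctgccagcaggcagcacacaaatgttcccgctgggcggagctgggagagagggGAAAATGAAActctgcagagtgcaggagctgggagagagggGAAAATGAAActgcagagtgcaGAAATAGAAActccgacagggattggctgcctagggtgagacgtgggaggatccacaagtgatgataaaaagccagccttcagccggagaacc
ISG15: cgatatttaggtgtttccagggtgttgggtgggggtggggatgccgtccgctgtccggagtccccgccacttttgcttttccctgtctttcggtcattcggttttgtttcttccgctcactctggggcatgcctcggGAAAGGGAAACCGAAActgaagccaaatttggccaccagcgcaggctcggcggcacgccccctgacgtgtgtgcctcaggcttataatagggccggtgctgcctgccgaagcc
IFIT1: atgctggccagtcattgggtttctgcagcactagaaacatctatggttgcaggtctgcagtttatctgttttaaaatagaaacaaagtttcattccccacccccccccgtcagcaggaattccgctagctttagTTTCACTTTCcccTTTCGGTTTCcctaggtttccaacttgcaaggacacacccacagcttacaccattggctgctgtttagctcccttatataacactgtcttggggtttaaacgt

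IFI6 held 3 matches, which begin 156, 115 and 93 bases before the start. ISG15 held 2 overlapping matches, beginning 113 and 107 bases before it, and IFIT1 held 2, at 116 and 103. Over windows of 300 bases that also take in the first 50 bases of the gene, 6 of the 9 genes had a match in at least 1 window, namely these 3, IFI27, IFIT3 and MX1. The windows of OAS1, STAT2 and IRF9 held none. A match was found in 9 of the 13 windows of the 9 genes and in 3.57% of all 35116 windows, where 0.259% held 2 or more. The windows of IFI27 overlap and hold the same matches, so its sites were counted repeatedly. As the 9 genes were chosen for their link to interferon, setting them beside all windows is no test. These matches describe the sequence and do not show that a factor bound there. Sites with other spacing or a changed base were not searched, so a window without a match may still hold an element.

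Whether a probe was above background was judged on each array separately, against a floor set from the dim side of that array's own signal distribution. A probe was tested when it exceeded the floor on at least 3 of the 9 arrays. Of the 16 probes 9 did so, and they stood for 6 of the 9 genes by the brightest probe of each: IFI6, IFIT1, ISG15, OAS1, STAT2 and IRF9. IFI27, IFIT3 and MX1 were not tested. A gene was called when the adjusted p of limma was under 0.05 over all 20220 probes tested.

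**Figure D1:**
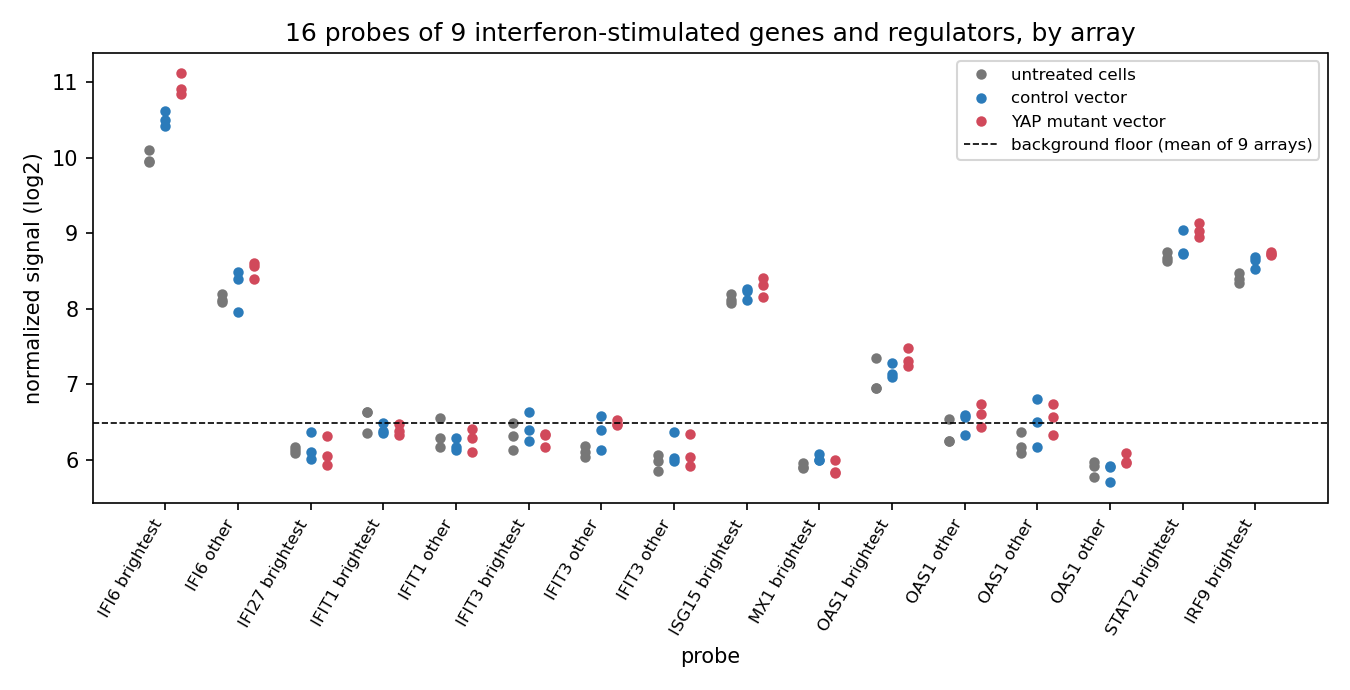
Log2 normalized signal of the 16 probes on each of the 9 arrays, as 1 point per array coloured by group, with the mean background floor of the arrays as a dashed line. IFI6, ISG15, STAT2, IRF9 and the brightest OAS1 probe lie above the floor on all 9 arrays, while the single probes of IFI27 and MX1 lie below it on all 9.

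IFI6 was the one member called in any comparison. It encodes a small mitochondrial and endoplasmic reticulum protein that opposes apoptosis and is strongly induced by type I interferon. At its brightest probe, ILMN_1687384, the log2 signals were 9.96, 9.95 and 10.11 in untreated cells, 10.42, 10.50 and 10.62 with the control vector, and 10.92, 10.85 and 11.12 with the YAP mutant vector. No array of one group overlapped with any array of another, with untreated cells lowest and the YAP mutant vector highest. The means were 10.01 ± 0.09, 10.52 ± 0.10 and 10.96 ± 0.14 (SD, n = 3 each).

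With the control vector IFI6 was 1.42-fold higher than in untreated cells (log2 difference 0.51, SE 0.11, 3 arrays in each group; limma, adjusted p = 0.0113). It was thus 1 of 6 tested members that rose and 0 fell, where 1.72% of all probes were called in this comparison, 1.18% as higher and 0.539% as lower. An unadjusted p under 0.05 was reached by 2 of 6 members and by 13.1% of all probes. With the YAP mutant vector IFI6 was 1.94-fold higher than in untreated cells (log2 0.96 ± 0.11; limma, adjusted p = 4.15e-06). Again it was 1 of 6 tested members that rose and 0 fell, against 4.46% of all probes called, 2.96% as higher and 1.5% as lower. An unadjusted p under 0.05 was reached by 4 of 6 members and by 17.5% of all probes.

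Between the vectors, the log2 difference of IFI6 was 0.45 ± 0.11 (95% interval 0.23 to 0.67), which missed the threshold (limma, adjusted p = 0.0881). Hence 0 of 6 tested members were called there by limma, where 0.297% of all probes were called, 0.277% as higher and 0.0198% as lower. An unadjusted p under 0.05 was reached by 1 of 6 members and by 6.26% of all probes. The 3 comparisons share arrays, so their differences are not independent of each other. The difference between the vectors passed the test without background correction (adjusted p = 0.0310), in the authors' normalized values (0.0295) and with a prior variance that follows intensity (0.0394). Over all 21 alternatives it ran from 0.37 to 0.52, with adjusted p from 0.0295 to 1.00.

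The rise of IFI6 with the control vector was the less stable of its calls. It ended when untreated replicate 1 (adjusted p = 0.0544), untreated replicate 2 (0.0625) or control vector replicate 3 (0.0838) was left out, when arrays were scaled to a common median (0.463) and when array brightness was a covariate (0.0523). It also ended without control vector replicate 3 and YAP mutant replicate 1 together (0.0950), which were the dimmest arrays. The difference itself stayed between 0.41 and 0.56 over all 21 alternatives, with adjusted p from 0.00412 to 0.463. The rise against untreated cells with the YAP mutant vector was called in all 21, with differences of 0.80 to 1.02.

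A second IFI6 probe, ILMN_2347798, gave smaller differences, none of them called. Its log2 signals were 8.09, 8.20 and 8.12 in untreated cells, 8.40, 8.49 and 7.96 with the control vector, and 8.61, 8.40 and 8.56 with the YAP mutant vector. Control vector replicate 3 was the lowest of all 9 arrays at this probe and the highest of its group at the brightest one. The second probe differed from untreated cells by 0.15 ± 0.12 with the control vector (limma, adjusted p = 0.663) and by 0.39 ± 0.12 with the YAP mutant vector (adjusted p = 0.0701). Without control vector replicate 3 the latter passed the test (adjusted p = 0.0254), and over its 20 alternatives the adjusted p ran from 0.0254 to 0.496. Across the 9 arrays the probes of IFI6 correlated at r = 0.66, a description over arrays that share 3 groups. The part of the transcript each probe reads is not given in the sources used here.

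**Figure D2:**
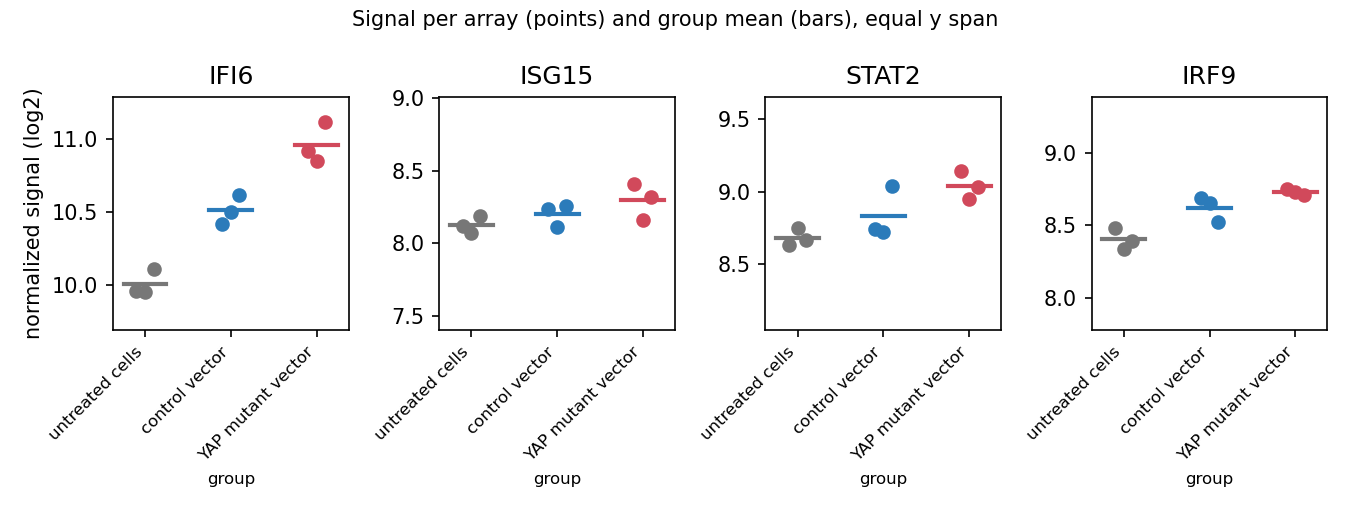
Log2 normalized signal per array (points) and group mean (bars) at the brightest probes of IFI6, ISG15, STAT2 and IRF9, on y axes of equal span. The groups of IFI6 do not overlap, with means of 10.01, 10.52 and 10.96, whereas those of ISG15 overlap.

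STAT2 and IRF9, the subunits of ISGF3 that are particular to type I and type III interferon signalling, were nearest to the threshold after IFI6. STAT2 gave log2 signals of 8.63, 8.75 and 8.67 in untreated cells, 8.74, 8.72 and 9.04 with the control vector, and 9.14, 8.95 and 9.03 with the YAP mutant vector. All YAP mutant arrays lay above all untreated arrays, and the control vector arrays overlapped with both. STAT2 differed from untreated cells by 0.36 ± 0.11 with the YAP mutant vector (95% interval 0.14 to 0.59; limma, adjusted p = 0.0570) and by 0.15 ± 0.11 with the control vector (adjusted p = 0.613). Between the vectors its difference was 0.21 ± 0.11 (adjusted p = 0.813).

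IRF9, the DNA-binding subunit, gave 8.48, 8.34 and 8.39 in untreated cells, 8.69, 8.65 and 8.52 with the control vector, and 8.75, 8.73 and 8.71 with the YAP mutant vector. The 3 groups did not overlap, although the highest control vector array (8.69) lay just under the lowest YAP mutant array (8.71). The difference of IRF9 from untreated cells was 0.33 ± 0.10 with the YAP mutant vector (limma, adjusted p = 0.0647) and 0.22 ± 0.10 with the control vector (adjusted p = 0.346). Between the vectors it was 0.11 ± 0.10 (95% interval -0.10 to 0.31; adjusted p = 0.942).

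Other processing brought STAT2 and IRF9 past the threshold when YAP mutant arrays were set against untreated ones. Both were called without background correction (adjusted p = 0.0344 for STAT2 and 0.0376 for IRF9), with cyclic loess (0.0467 and 0.0433) and in the authors' normalized values (0.0322 and 0.0384). STAT2 was called in 7 of 21 alternatives, with adjusted p from 0.0322 to 0.473, among them the one without control vector replicate 3 (0.0380). IRF9 was called in 3 of 21, with adjusted p from 0.0376 to 0.574.

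ISG15, a ubiquitin-like protein that is conjugated to other proteins during the interferon response, hardly separated the groups. Its log2 signals were 8.12, 8.07 and 8.19 in untreated cells, 8.24, 8.11 and 8.26 with the control vector, and 8.41, 8.16 and 8.32 with the YAP mutant vector. The groups overlapped in each comparison. ISG15 differed from untreated cells by 0.08 ± 0.10 with the control vector (95% interval -0.14 to 0.29; limma, adjusted p = 0.823) and by 0.17 ± 0.10 with the YAP mutant vector (-0.04 to 0.39; adjusted p = 0.406). None of the 21 alternatives called it in any comparison.

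OAS1, which makes the 2′,5′-linked oligoadenylates that activate RNase L on sensing double-stranded RNA, had 4 probes. The brightest, ILMN_1658247, gave 6.95, 7.34 and 6.95 in untreated cells, 7.10, 7.13 and 7.28 with the control vector, and 7.48, 7.24 and 7.30 with the YAP mutant vector. Untreated replicate 2 lay above all control vector arrays. The difference from untreated cells was 0.26 ± 0.12 with the YAP mutant vector (limma, adjusted p = 0.235) and 0.09 ± 0.12 with the control vector (adjusted p = 0.818).

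Of the other OAS1 probes, ILMN_1675640 differed from untreated cells by 0.25 ± 0.12 with the YAP mutant vector (limma, adjusted p = 0.264). ILMN_2410826, above background on 0 of 3 untreated arrays and on 2 of 3 in each vector group, gave a fitted difference of 0.34 ± 0.14 (means 6.54 and 6.20; adjusted p = 0.176). With untreated cells not well above background there, that difference rests on a level that is only a bound. That probe passed the test with array brightness as a covariate (0.0434) and without both dim arrays (0.0438), and its adjusted p ran from 0.0434 to 0.468 over 19 alternatives. The remaining probe, ILMN_1672606, was above background on 0 of 9 arrays.

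IFIT1, which binds viral RNA lacking the methylation of host caps, lay at the edge of background. Its brightest probe gave 6.63, 6.35 and 6.63 in untreated cells, 6.35, 6.48 and 6.38 with the control vector, and 6.38, 6.32 and 6.47 with the YAP mutant vector. It was above background on 2 of 3 untreated arrays, on 0 of 3 with the control vector and on 1 of 3 with the YAP mutant vector. IFIT1 was the tested member with fitted differences below 0 against untreated cells, at -0.14 ± 0.11 for both vectors (limma, adjusted p = 0.647 for the control vector and 0.530 for the YAP mutant vector). IFIT1 was not well above background on the control vector arrays, so its level there is only a bound.

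IFIT3, a partner that stabilises IFIT1 on RNA, missed the filter at all 3 probes. ILMN_1664543 gave 6.04, 6.10 and 6.18 in untreated cells, 6.58, 6.39 and 6.12 with the control vector, and 6.47, 6.53 and 6.46 with the YAP mutant vector. All YAP mutant arrays were above all untreated arrays at this probe, but it exceeded the floor on only 2 of 9 arrays and was not tested. The brightest IFIT3 probe, ILMN_2239754, exceeded it on 1 array, and its groups overlapped. MX1, a dynamin-like GTPase that blocks virus replication, was above background on 0 of 9 arrays, with log2 signals of 5.82 to 6.07. IFI27, a mitochondrial relative of IFI6 and among the most inducible interferon genes, was above background on 0 of 9 arrays as well, between 5.93 and 6.37. At this signal a difference in IFI27, IFIT3 or MX1 was not detectable, which does not show that it was absent.

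Read over the 6 tested members, 5 had a difference above 0 in each comparison, with IFIT1 as the exception. The median log2 difference was 0.12 for the control vector against untreated cells, 0.29 between YAP mutant and untreated arrays and 0.14 between the vectors. Over all probes these medians were -0.003, -0.008 and -0.003. The groups did not overlap, with the first above the second, for 2 of 6 members with the control vector against untreated cells, 3 of 6 with the YAP mutant vector against untreated cells and 2 of 6 between the vectors. Over all probes the shares were 9.45%, 11.4% and 5.65%. Members were chosen with earlier results of these data known and passed a filter on signal, so the medians and counts are descriptions.

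**Figure D3:**
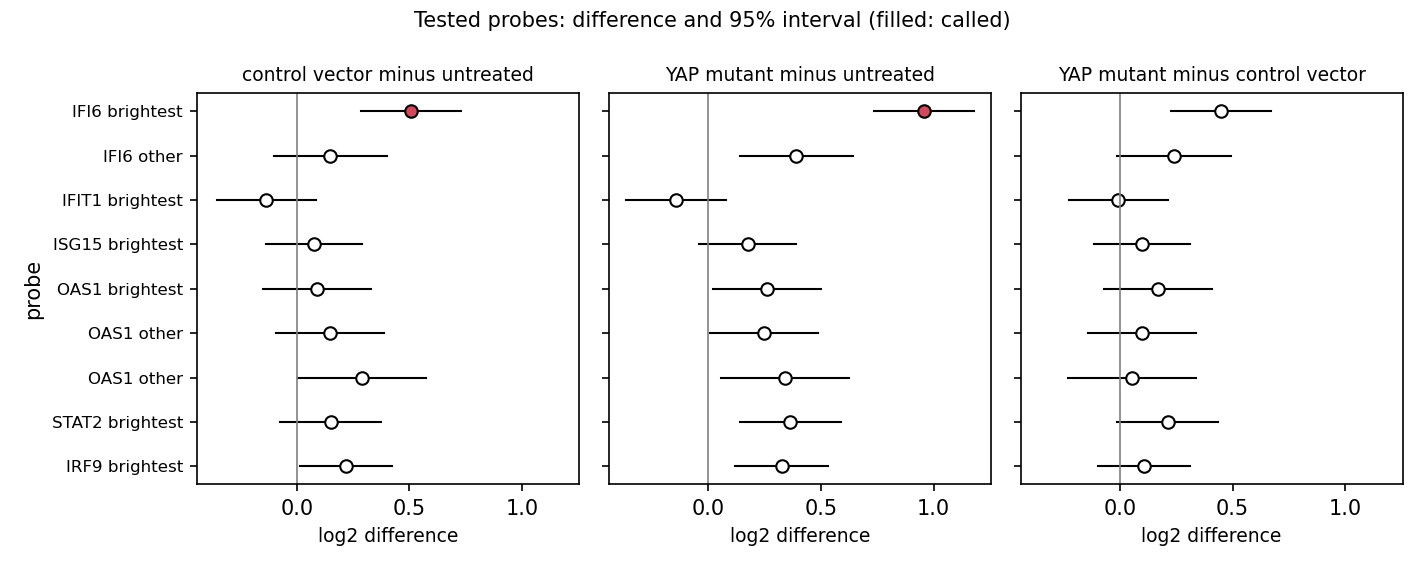
Log2 differences (points) with 95% intervals (lines) of the 9 tested probes in the 3 comparisons, filled where the adjusted p was under 0.05. Only the brightest IFI6 probe is filled, at 0.51 and 0.96 against untreated cells.

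The other genes of the pathway were read from a list of 132 genes, each through its brightest probe. None of 20 interferon genes exceeded the filter, and 18 of them were above background on 0 of 9 arrays. IFNB1, the interferon that most cells make first, gave 5.94 to 6.20 and was above background on no array. Of 6 receptor genes 5 were tested and 0 were called in any comparison (limma; 0 had an unadjusted p under 0.05). The type I receptor chains IFNAR1 and IFNAR2 differed from untreated cells by -0.14 ± 0.10 and -0.06 ± 0.13 with the YAP mutant vector.

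Of 12 signalling kinases and transcription factors 9 were tested and 0 were called in any comparison, with 1 at an unadjusted p under 0.05 in each. Against untreated cells 13.1% of all probes reached that with the control vector and 17.5% with the YAP mutant vector, and 6.26% between the vectors. JAK1 differed from untreated cells by 0.33 ± 0.11 with either vector (limma, adjusted p = 0.160 for the control vector and 0.103 for the YAP mutant vector), and TYK2 by -0.09 and 0.03. IRF1, IRF3 and IRF7, factors that carry the response from sensor to gene, differed from untreated cells by 0.15, 0.09 and -0.07 with the YAP mutant vector (adjusted p = 0.522, 0.749 and 0.814).

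Among 18 sensors and adaptors 9 were tested. With either vector 1 of 9 rose against untreated cells, where 1.72% and 4.46% of all probes were called. STING1, the adaptor that relays cytosolic DNA sensing by cGAS, gave 8.02, 7.84 and 7.96 in untreated cells, 8.56, 8.51 and 8.64 with the control vector, and 8.80, 8.73 and 8.53 with the YAP mutant vector. Both vector groups lay above all untreated arrays and overlapped with each other. STING1 was 1.55-fold higher with the control vector (log2 0.63 ± 0.10; limma, adjusted p = 0.00156) and 1.68-fold higher with the YAP mutant vector (log2 0.75 ± 0.10; adjusted p = 6.88e-05). Between the vectors the difference was 0.12 ± 0.10 (adjusted p = 0.939). With arrays scaled to a common median the call with the control vector ended (adjusted p = 0.105, the highest of 21 alternatives, with 8.75e-04 as the lowest). CGAS itself was above background on no array. The RNA sensor RIGI exceeded the floor on 1 array, and IFIH1, another RNA sensor, differed from untreated cells by 0.30 ± 0.11 with the control vector (adjusted p = 0.216). With the YAP mutant vector IFIH1 differed by 0.16 ± 0.11 from untreated cells and by -0.14 ± 0.11 from the control vector (limma, adjusted p = 0.495 and 0.927). TICAM1 and TBK1 differed from untreated cells by -0.34 ± 0.12 and -0.24 ± 0.10 with the YAP mutant vector (adjusted p = 0.0988 and 0.195). Of the 9 tested, 3 had a difference above 0 with the control vector and 5 with the YAP mutant vector.

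Of 6 inhibitors 5 were tested. With the YAP mutant vector against untreated cells 1 of 5 was called higher, where 4.46% of all probes were called. It was SOCS3, a feedback inhibitor of JAK-STAT signalling that many cytokines induce. Its log2 signals were 7.15, 6.98 and 7.16 in untreated cells, 7.65, 7.48 and 7.52 with the control vector, and 8.24, 8.34 and 7.74 with the YAP mutant vector. No groups overlapped. SOCS3 was 2.02-fold higher with the YAP mutant vector than in untreated cells (log2 1.01 ± 0.13; limma, adjusted p = 1.68e-05). It differed by 0.45 ± 0.13 between the control vector and untreated cells (adjusted p = 0.0692), and by 0.56 ± 0.13 between the vectors (adjusted p = 0.0657). Without YAP mutant replicate 3 both of these passed the test (0.0187 and 0.00227), with ranges of 0.0187 to 0.504 and 0.00227 to 1.00 over 21 alternatives. USP18, the ISG15 protease that shuts off the type I receptor, differed by -0.02 ± 0.11 from untreated cells with the YAP mutant vector (adjusted p = 0.946).

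Of 70 other interferon-induced genes 38 were tested. With the control vector 1 of 38 rose (2.63%, against 1.72% of all probes called). It was LGALS3BP, a secreted glycoprotein that binds galectins, by 0.46 ± 0.12 (limma, adjusted p = 0.0383). With the YAP mutant vector against untreated cells 4 of 38 rose (10.5%, against 4.46% of all probes called). TAP1, which carries peptides into the endoplasmic reticulum for HLA class I loading, rose by 0.61 ± 0.11 (adjusted p = 0.00124). LGALS3BP rose by 0.54 ± 0.12 (0.00668), PSMB8, a subunit of the immunoproteasome, by 0.45 ± 0.12 (0.0312) and PARP14, a mono-ADP-ribosyltransferase, by 0.42 ± 0.12 (0.0384). With the control vector TAP1, PSMB8 and PARP14 differed from untreated cells by 0.41, 0.37 and 0.31 (limma, adjusted p = 0.0560, 0.129 and 0.217). Between the vectors TAP1, LGALS3BP, PSMB8 and PARP14 differed by 0.20, 0.07, 0.08 and 0.11 (limma, adjusted p = 0.831, 0.968, 0.965 and 0.946). TAP1 and PSMB8 are also well-known targets of interferon gamma.

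Several of these calls ended with 1 array fewer, while the differences stayed above 0. PSMB8 lost its call without untreated replicate 2 (adjusted p = 0.135) or 3 (0.143) and without each YAP mutant array (0.0965, 0.0814 and 0.0604), and over 21 alternatives its difference ran from 0.33 to 0.56, with adjusted p from 0.0142 to 0.353. PARP14 lost it without each untreated array (0.118, 0.101 and 0.0752) and also without the second (0.204) or the third (0.0658) YAP mutant array, with differences of 0.28 to 0.55 and adjusted p of 0.0124 to 0.208 over the alternatives. LGALS3BP with the control vector lost it without each untreated array (0.0914, 0.131 and 0.0983) and without control vector replicate 1 (0.0897) or 3 (0.236), with differences of 0.35 to 0.59 and adjusted p of 0.00936 to 0.430. With arrays scaled to a common median all 4 calls with the YAP mutant vector ended, TAP1 (0.159) and LGALS3BP (0.141) included. Of the 4 tested PSMB8 probes, ILMN_1747195 was called with either vector (0.45 and 0.56) and ILMN_2284794 with neither (0.11 and 0.15).

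Of the 70 genes 32 were below the filter, and 22 of these were above background on no array. IFIT2, a relative of IFIT1, and the chemokine CXCL10 were among the 22, and IFITM1 and IFITM3, membrane proteins that hinder virus entry, were tested. IFITM3 gave 6.68 to 6.77 in untreated cells, 6.78 to 7.08 with the control vector and 6.84 to 7.33 with the YAP mutant vector. The difference of IFITM3 from untreated cells was 0.36 ± 0.12 with the YAP mutant vector (limma, adjusted p = 0.0913), and that of IFITM1 was 0.20 ± 0.10 (adjusted p = 0.328). IFITM3 was called there in 3 of 21 alternatives, among them the one without YAP mutant replicate 1 (limma, adjusted p = 0.0256). Its adjusted p ran from 0.0110 to 0.371 over the alternatives.

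Over the whole list, 2 of 66 tested genes rose with the control vector (3.03%, against 1.72% of all probes called), and 6 of 66 with the YAP mutant vector against untreated cells (9.09%, against 4.46%), and 0 fell in either. Between the vectors 0 of 66 were called, against 0.297% of all probes, and limma with a prior variance that follows intensity called 1. An unadjusted p of limma under 0.05 was reached by 17, 17 and 5 of 66 genes in these 3 comparisons. The shares of all probes were 13.1%, 17.5% and 6.26%. The median log2 differences of the list were 0.04, 0.09 and 0.03, against -0.003, -0.008 and -0.003 over all probes. The list was compiled with earlier results of these data known, and no test was made of it as a whole.

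**Figure D4:**
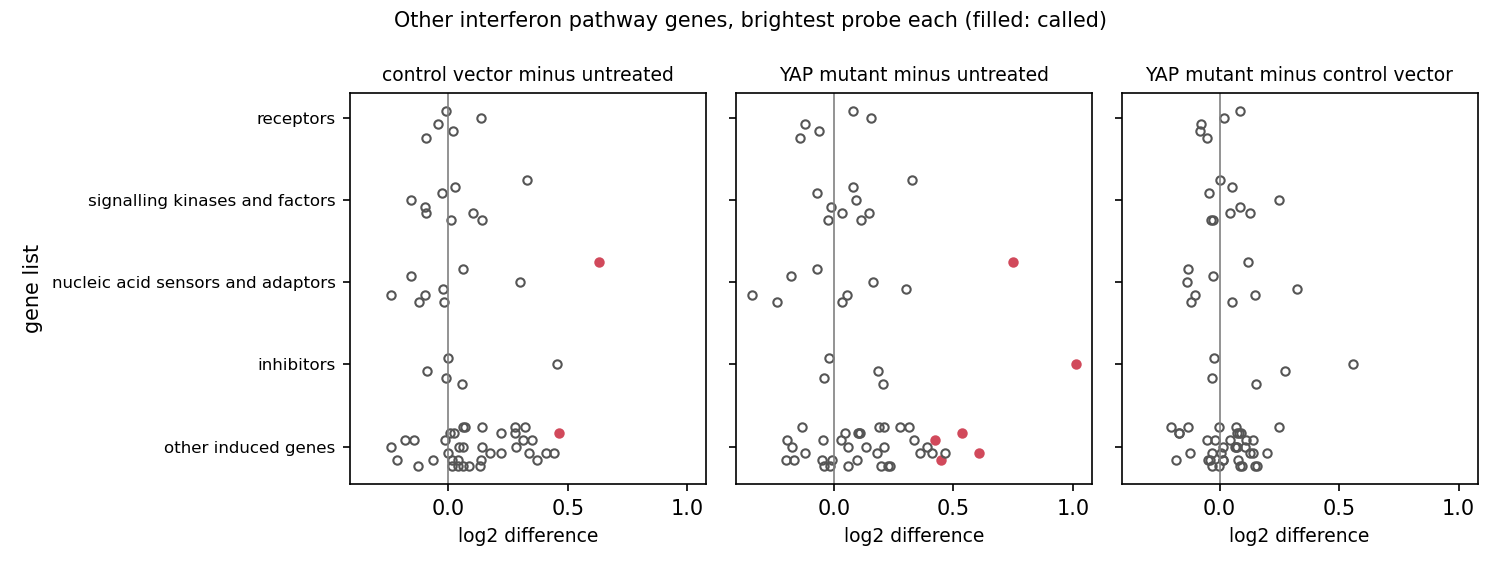
Log2 differences of 66 other pathway genes in the 3 comparisons, 1 point per gene in rows by role, filled where the adjusted p was under 0.05. The filled points are 2 in the control vector panel and 6 in the YAP mutant against untreated panel, SOCS3 being the farthest right at 1.01, and 0 between the vectors.

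The genes whose signal followed the members most closely over the 9 arrays were none of the pathway's own. The pattern used was the mean of the centred log2 signals of the 6 tested members, which was -0.17, -0.17 and -0.14 in untreated cells, -0.04, -0.03 and 0.05 with the control vector, and 0.22, 0.08 and 0.20 with the YAP mutant vector. Among 11878 other named genes the highest correlations were those of OLFML2B (r = 0.98), the bestrophin BEST2 (0.98), TMEM120A (0.97), MS4A8 (0.97) and MYADM (0.97), all over 9 arrays in the same 3 groups. In the same order, their log2 differences between the vectors were 0.37, 0.22, 0.25, 0.52 and 0.23, a description of genes chosen for this pattern. OLFML2B lay below background on all untreated and control vector arrays (6.06 to 6.42), so its level there is only a bound. It passed the filter through the YAP mutant arrays alone (6.87, 6.55 and 6.67). Between pairs of the 6 members, r ran from -0.74 for IFIT1 with OAS1 to 0.85 for IFI6 with STAT2, and all 5 pairs with IFIT1 were below 0. IFIT1 was above background on only 3 of 9 arrays, so its correlations, and its part in the mean pattern, rest mostly on values below the floor.

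Median raw intensity per array ran from 104 to 129, lowest in control vector replicate 3 and YAP mutant replicate 1, and 38.9% to 41.2% of probes were above background. The number of arrays limits the precision, and nothing says that replicates came from separate cultures, so p-values reflect only how far these arrays differed, which may be technical variation. Of 11 enteroendocrine and gut epithelial markers 10 were tested, with VIL1 below background. YAP1, whose brightest probe may not read the vector, differed by 0.07 between the vectors (limma, adjusted p = 0.964), so it checks nothing about the labels. Against untreated cells YAP1 differed by -0.30 with the control vector and -0.23 with the YAP mutant vector (limma, adjusted p = 0.183 and 0.258).

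Some markers listed for other cell types moved with the same comparisons. CD14, also a myeloid marker, rose by 0.43 with the control vector (limma, adjusted p = 0.0436), while 4 of 8 blood cell markers, PTPRC, CD3E and ITGAM among them, were above background on 0 of 9 arrays. The other tested blood markers also lay above 0 with the control vector but were not called. HBB differed by 0.45, LYZ by 0.32 and CD68 by 0.04 (limma, adjusted p = 0.0503, 0.168 and 0.948). The summed signal of the blood markers was 5101 to 6160 in untreated cells, 6000 to 6903 with the control vector and 5525 to 6394 with the YAP mutant vector. LUM, of 6 fibroblast markers, rose by 0.51 with the YAP mutant vector against untreated cells (adjusted p = 0.0179), with DCN and PDGFRB above background on 0 of 9 arrays. The other tested fibroblast markers were not called there. COL3A1 differed by 0.15, COL1A2 by 0.12 and COL1A1 by -0.09 (limma, adjusted p = 0.491, 0.638 and 0.764). The fibroblast sums were 2997 to 3198, 3267 to 3888 and 3585 to 4296. Of the enteroendocrine markers, the granin SCG2 fell by 0.87 and the prohormone convertase PCSK1 fell by 0.57 with the YAP mutant vector against untreated cells (adjusted p = 7.33e-06 and 0.00294). SCG2 also fell by 0.43 with the control vector (adjusted p = 0.0297). The other 8 tested markers of that list were not called against untreated cells, and 5 of all 10 had a difference above 0 with either vector, such as CHGA (0.14), CHGB (0.08), GCG (0.13), KRT8 (0.50) and KRT18 (0.04) with the YAP mutant vector. The summed signal of the list was 40485 to 44864 in untreated cells, 41494 to 46100 with the control vector and 40743 to 42137 with the YAP mutant vector. In bulk samples fewer cells of a type and less RNA per cell cannot be told apart, and the part of these markers in the interferon genes' differences was not tested.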

How the data were processed

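Per the labels' protocols, total RNA was isolated with a mirVana kit, amplified to biotin-labelled cRNA and measured on Illumina bead arrays, and the authors exported gene profiles with BeadStudio. The deposited table of raw intensities covers 47230 probes and gives no detection p. The authors' second table holds log2 values, which lie within 0.005 of the log2 of the same intensities after quantile normalization. Aligner and genome build are not given in the sources used here. All columns were used (0 left out), and no arrays were identical (0 pairs).

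With limma 3.58.1 (R 4.3.3), normexp (offset 50) removed background, arrays were brought to common quantiles and log2 was taken. A probe counted as above background on an array when its raw log2 intensity exceeded the mode by the one-sided 95% normal quantile times the lower-side SD, and was kept when this held on at least 3 arrays (20220 probes; 5.82% of 464 olfactory receptor probes). The 9 arrays entered a single fit with 3 group means (6 residual and 16.8 prior degrees of freedom). Tests were 2-sided with Benjamini-Hochberg adjustment over all kept probes. Symbols of the other pathway genes were updated through RefSeq (GRCh38.p14), and 0 further probes bore an older name of a member. The steps were tested on simulated data, where recovery was required only for changes larger than the differences reported here.

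Groups follow the labels. Named were all 9 members with all probes, 16 fixed pathway genes, up to 12 called pathway genes per comparison and the 5 genes most alike. The values of some listed genes are not reported here. Members and lists were chosen with earlier results of these data known. Single pathway and marker genes were added as examples after their values were seen. Equal replicate numbers showed no clear pairing of the arrays: deviations from group means correlated at -0.20 to 0.16 for equal numbers and -0.15 to 0.20 for others. With 3 arrays per group a weak pairing could be missed.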

Additional observations from a re-analysis of the deposited data

How the results depend on the processing

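All 21 alternatives were run for the 3 comparisons. No called difference of a member or named pathway gene changed sign, and marker genes and the genes most alike were not rerun. Arrays scaled to a common median gave fewer calls over all probes: 54 for the control vector against untreated cells (30 higher and 24 lower, beside 239 and 109 of 348), 215 of 902 with the YAP mutant vector against untreated cells and 12 of 60 between the vectors. That scaling left 0 members and 0 pathway genes with the control vector, and 2 pathway genes with the YAP mutant vector against untreated cells, while shifting the median of all probes by under 0.1. Array brightness as a covariate gave 200 and 569 probes against untreated cells and 0 members with the control vector. Without both dim arrays the counts were 168 with the control vector and 12 between the vectors, with 0 members and 1 pathway gene with the control vector. With the YAP mutant vector against untreated cells, 3 members were called without background correction, with cyclic loess and in the authors' normalized values, and 2 with a stricter filter, with the brightest probe per gene and with the arrays of that comparison alone. Between the vectors 1 member was called without background correction, in the authors' values and with a prior variance that follows intensity. That prior, and no filter on dim probes, called 1 pathway gene there, and cyclic loess called 4 with the control vector.

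Leaving out 1 array at a time gave 177 to 404 called probes for the control vector against untreated cells (lowest without control vector replicate 3), 536 to 988 with the YAP mutant vector against untreated cells (lowest without YAP mutant replicate 3) and 24 to 55 between the vectors (lowest without YAP mutant replicate 2). Called members ran from 0 to 1, from 1 to 2 and from 0 to 0, and called pathway genes from 1 to 4, from 5 to 7 and from 0 to 1. With the replicate number as a block, 377, 971 and 59 probes were called, with 1, 1 and 0 members and 2, 7 and 0 pathway genes. Signal near background limits IFI27, IFIT1, IFIT3 and MX1.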
